A study of Mus musculus with 8 samples.

Results

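The genes examined were 40 mouse genes for glutathione use, thioredoxin and antioxidant defense, matched by symbol among 17442 named genes with reads in a comparison of limbus and cornea. All 40 were found, and each had more than 3 reads in both libraries (19 to 727279 reads). They comprised glutathione S-transferases, the enzymes that make and recycle glutathione, glutathione peroxidases, peroxiredoxins, thioredoxins with their reductases, superoxide dismutases and catalase, a quinone reductase, heme oxygenases and metallothioneins. Between cornea and conjunctiva lies the limbal rim, which houses the epithelial stem cells, and the corneal button is the clear tissue inside it. Both were dissected from wild type C57BL/6J mice at 8 weeks of age, without treatment in the sources used here, and 16 eyes were collected. Rims and buttons were pooled by tissue, and total RNA libraries were prepared with a stranded kit from 100 ng RNA. The labels list 8 samples, 4 per tissue, numbered in a form also used for sequencing lanes, so whether they are separate libraries is not known. The table analyzed holds 1 library per tissue, so there was no spread between replicates and no test. Intervals given with the log2 ratio of a gene are 95% intervals by the exact Clopper-Pearson method, taken on the share of its reads that were limbal. Intervals of a difference between the log2 ratios of different genes are symmetric about that difference and not of this exact kind. All intervals cover counting error only, since there is 1 library per tissue. The reads carry no molecular identifiers here, so copies of the same molecule count as separate reads and even counting error may be understated. A difference is called beyond counting error where its interval leaves out a log2 ratio of 0, which says nothing of how animals or dissections vary.

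Reactive oxygen species are removed in steps that hand electrons along. Superoxide dismutases turn superoxide into hydrogen peroxide, and catalase splits the peroxide into water and oxygen. Glutathione peroxidases and peroxiredoxins remove peroxides with electrons from glutathione or thioredoxin, which reductases renew with NADPH. Glutathione S-transferases couple glutathione to reactive molecules such as aldehydes from damaged lipids, and metallothioneins bind zinc and copper through their many cysteines. The cornea faces light and air directly, and its epithelium is known for storing large amounts of a few soluble enzymes. Many of these genes are known targets of Nrf2 (Nfe2l2), which binds the antioxidant response element, and metallothionein genes are known targets of Mtf1, which binds the metal response element.

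The start regions of 6 members are printed because they are neighbors on a chromosome (Mt1 with Mt2, Gstm1 with Gstm2) or hold a match to the Nrf2 motif (Prdx1, Gclm). Each is the genomic sequence before the RefSeq start in GRCm38.p6, 5′ to 3′ on the gene's strand, cut where an annotated exon of the gene begins. Capitals mark matches, on either strand, to the antioxidant response element core TGACNNNGC or to the metal response element cores TGCACNC and TGCGCNC, and overlapping matches run together. The windows are chr8:94178839-94179081 (plus strand) for Mt1, chr8:94172368-94172617 (plus) for Mt2, chr4:116685349-116685543 (plus) for Prdx1, chr3:122245307-122245556 (plus) for Gclm, chr3:108017974-108018223 (minus) for Gstm1 and chr3:107986454-107986670 (minus) for Gstm2.
Mt1: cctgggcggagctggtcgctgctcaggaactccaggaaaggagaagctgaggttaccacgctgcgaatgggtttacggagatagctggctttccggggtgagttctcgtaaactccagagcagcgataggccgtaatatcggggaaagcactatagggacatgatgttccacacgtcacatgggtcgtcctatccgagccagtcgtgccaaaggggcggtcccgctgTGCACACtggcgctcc
Mt2: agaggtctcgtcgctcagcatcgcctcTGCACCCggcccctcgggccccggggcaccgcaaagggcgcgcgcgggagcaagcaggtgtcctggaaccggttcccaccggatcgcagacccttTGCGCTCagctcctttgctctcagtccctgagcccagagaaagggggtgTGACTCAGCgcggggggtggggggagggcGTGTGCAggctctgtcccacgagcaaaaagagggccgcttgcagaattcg
Prdx1: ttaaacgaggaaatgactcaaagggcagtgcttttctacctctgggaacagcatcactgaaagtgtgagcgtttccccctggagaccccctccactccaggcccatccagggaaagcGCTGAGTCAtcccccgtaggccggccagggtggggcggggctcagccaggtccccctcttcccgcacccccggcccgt
Gclm: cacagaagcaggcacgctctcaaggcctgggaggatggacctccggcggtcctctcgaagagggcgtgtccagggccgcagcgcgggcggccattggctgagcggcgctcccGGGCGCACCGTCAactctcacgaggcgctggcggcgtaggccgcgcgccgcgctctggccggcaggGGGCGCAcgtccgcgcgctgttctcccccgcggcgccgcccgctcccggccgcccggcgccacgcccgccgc
Gstm1: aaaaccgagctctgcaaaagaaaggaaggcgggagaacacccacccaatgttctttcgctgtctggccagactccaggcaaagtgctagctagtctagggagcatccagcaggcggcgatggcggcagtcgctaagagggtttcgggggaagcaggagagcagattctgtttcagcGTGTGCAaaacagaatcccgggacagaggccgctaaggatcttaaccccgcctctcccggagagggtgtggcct
Gstm2: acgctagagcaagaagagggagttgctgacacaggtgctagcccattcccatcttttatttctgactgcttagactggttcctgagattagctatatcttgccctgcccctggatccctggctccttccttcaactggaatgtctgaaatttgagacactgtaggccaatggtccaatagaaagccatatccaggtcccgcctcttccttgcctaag

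Start regions were at hand for 34 of the 40 members and not for Sod3, Gsta4, Hmox1, Gclc, Gsr and Prdx6. In the 250 bases before the start, 8 of the 34 members (23.5%) held TGACNNNGC, namely Gclm, Gsta3, Gstm5, Mgst1, Mt2, Prdx1, Sod1 and Txnrd1, against 10.2% of all 32851 start regions of that length. Counted by start region, since some genes have several, it was 18.6% of 43 regions of the members. The form TGACTCAGC, which is at the same time a site of the AP-1 factor, stood in Mt2 and Prdx1 and in 0.39% of all regions. TGCACNC was found in Mt1, Mt2 and Gstm1 (10.4% of all regions), and TGCGCNC in 7 members, Mt2, Gclm, Gstm5, Gstt1, Prdx4, Srxn1 and Txnrd2 (12.5% of all regions). The members that hold TGACNNNGC lay on both sides of the comparison, from Mt2, lower in the limbus, to Mgst1, higher there, as the values below show. A match of letters is a description and not a bound site.

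The 9 families did not move as a block. By log2 ratio of limbus over cornea, after division by the size factors of the deposited table, 9 of the 40 members were at least 2-fold higher in the limbus (22.5%), against 15.5% of the 13862 genes read more than 3 times in each library. None of the 40 was at least 2-fold higher in the cornea, against 8.99% of all those genes. At a fold of 1.5 the numbers were 12 members in the limbus (30%, against 21.7% of all genes) and 5 in the cornea (12.5%, against 21.5%). The interval lay above 0 for 21 members (52.5%, against 33.2% of all genes) and below 0 for 15 (37.5%, against 40.6%), and it held 0 for 4, Mgst2, Txn2, Txnrd1 and Hmox2. Counting error is small for the many members with high read numbers, so an interval can leave out 0 at a small ratio. The median log2 ratio of the members was 0.13 and that of all genes -0.055. The members ranged from -0.87 for Gclc to 4.35 for Gpx3. Other scalings of the libraries were by total reads, by a trimmed mean of log ratios and by setting the median log2 ratio of genes with a mean of at least 50 to 0 (the median scaling), which raise every log2 ratio by 0.21, 0.061 and 0.10.

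**Figure D1:**
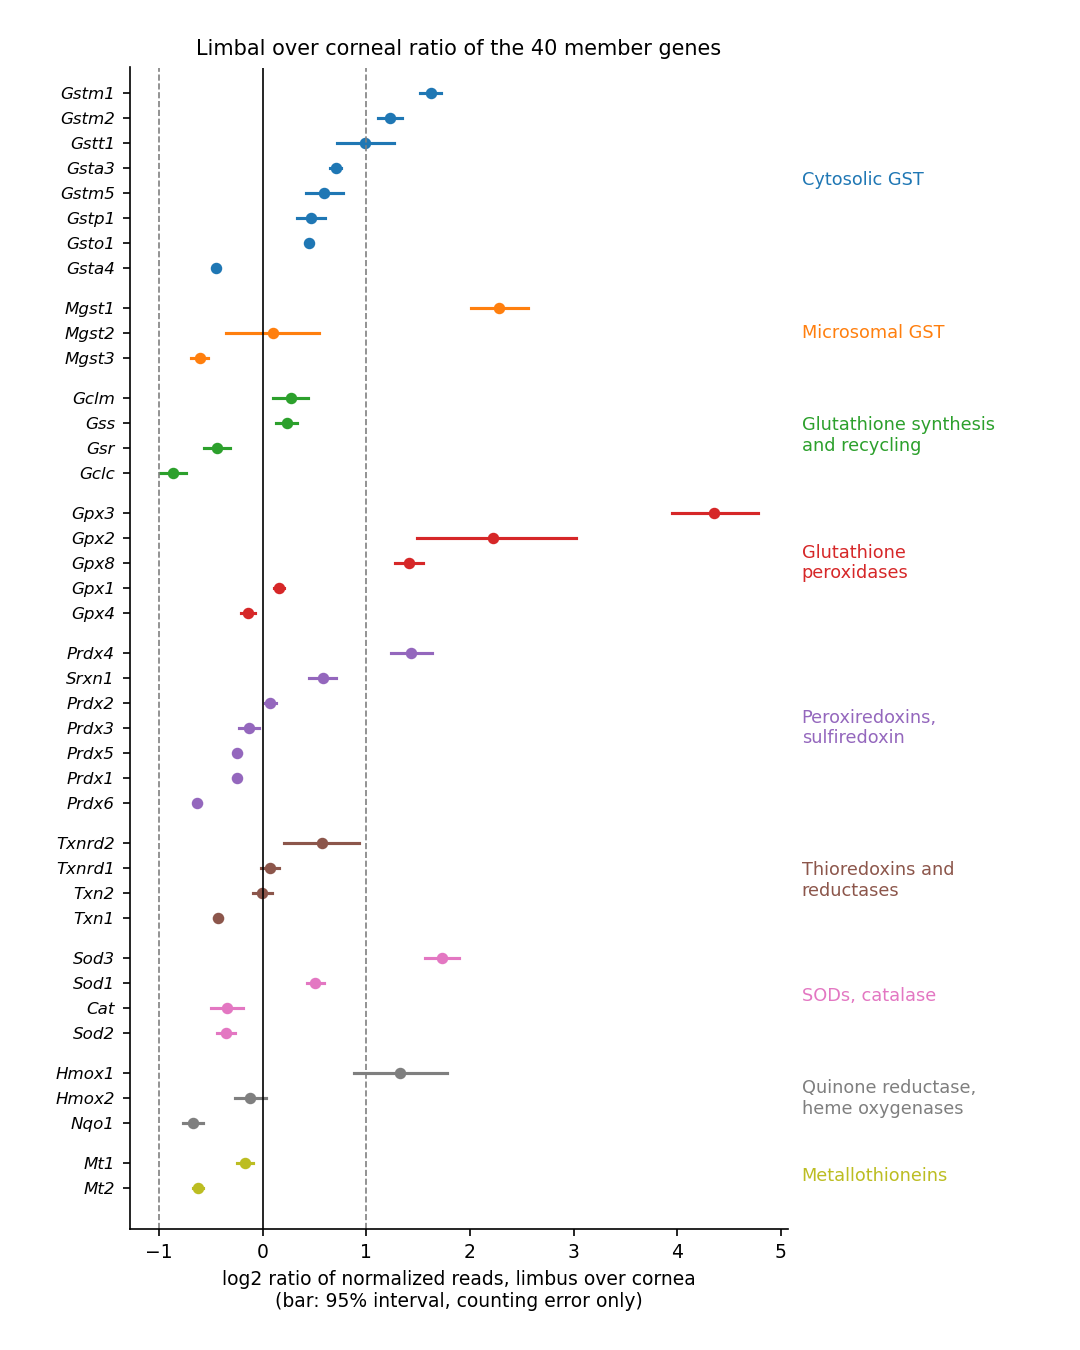
Log2 ratio of normalized reads, limbus over cornea, of the 40 genes by family (points) with exact 95% intervals of counting error (bars, hidden by the point where narrow), 1 library per tissue. Dashed lines mark a 2-fold difference, passed on the limbal side by 9 genes led by Gpx3 and on the corneal side by none.

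The 9 genes at least 2-fold higher in the limbus were Gpx3, Mgst1, Gpx2, Sod3, Gstm1, Prdx4, Gpx8, Hmox1 and Gstm2. For 8 of them the whole interval lay above a log2 ratio of 1, the exception being Hmox1. Gstt1, with 175 corneal and 325 limbal reads, fell just short at a log2 ratio of 0.99 (interval 0.72 to 1.26), and Gstm2, at 1.23 (1.11 to 1.35), was the nearest on the other side. The 9 genes had between 19 and 1040 reads in the cornea, so the most abundant members were not among them.

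**Figure D2:**
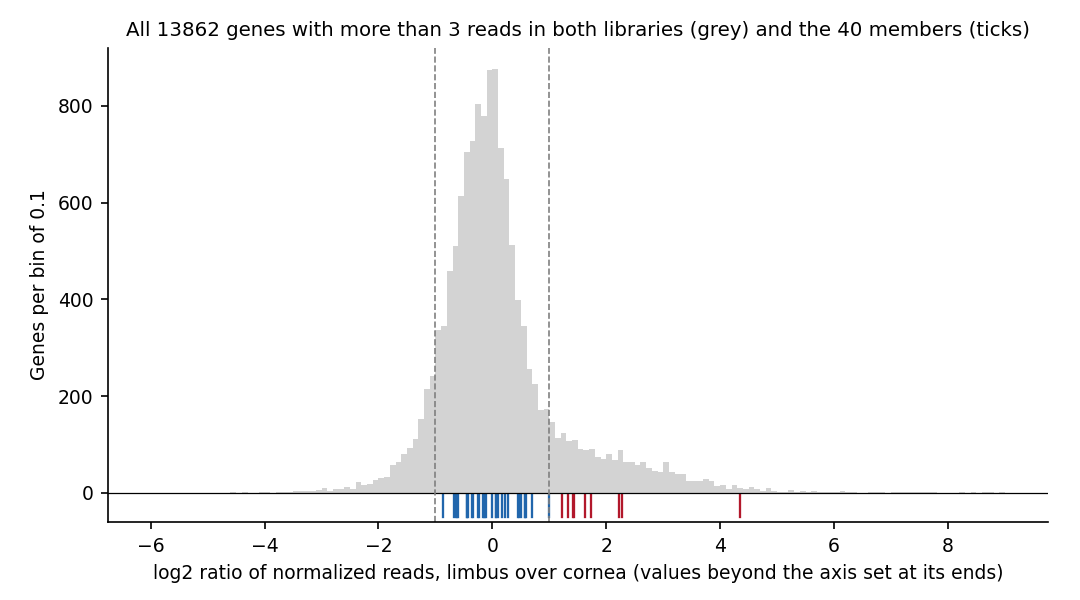
Number of genes per bin of 0.1 in log2 ratio of limbus over cornea for the 13862 genes read more than 3 times in each library (grey), with the 40 members as ticks below (red where at least 2-fold higher in the limbus, blue otherwise). The members lie between -0.87 and 4.35, with none left of the dashed line at a 2-fold corneal difference.

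The omega-class transferase Gsto1, which reduces dehydroascorbate and removes glutathione from proteins, stood far above every other member. It had 569416 corneal reads, the fourth highest number of all genes there, and 727279 limbal reads, the highest of all genes. This was 2.18% (exact 95% interval 2.176 to 2.187) of the corneal and 3.43% (3.426 to 3.441) of the limbal reads on named genes, and 67.3% and 77.3% of the reads on the 40 members together. Its log2 ratio was 0.45 (0.44 to 0.45). Gsto1 lies at chr19:47854970-47864790 in GRCm38. The alpha-class transferase Gsta4, which conjugates the lipid aldehyde 4-hydroxynonenal, came next with 152503 corneal and 104460 limbal reads and leaned the other way, at -0.45 (-0.46 to -0.44). Per length of exon, Gsto1 had 466014 normalized reads per kb in the cornea and Gsta4 116528, and in the limbus 636058 and 85296. Gsto1 was thus 4.0 times the next member in the cornea and 7.5 times in the limbus. The difference between both log2 ratios, which no scaling of the libraries can change, was 0.90 (0.89 to 0.91).

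**Figure D3:**
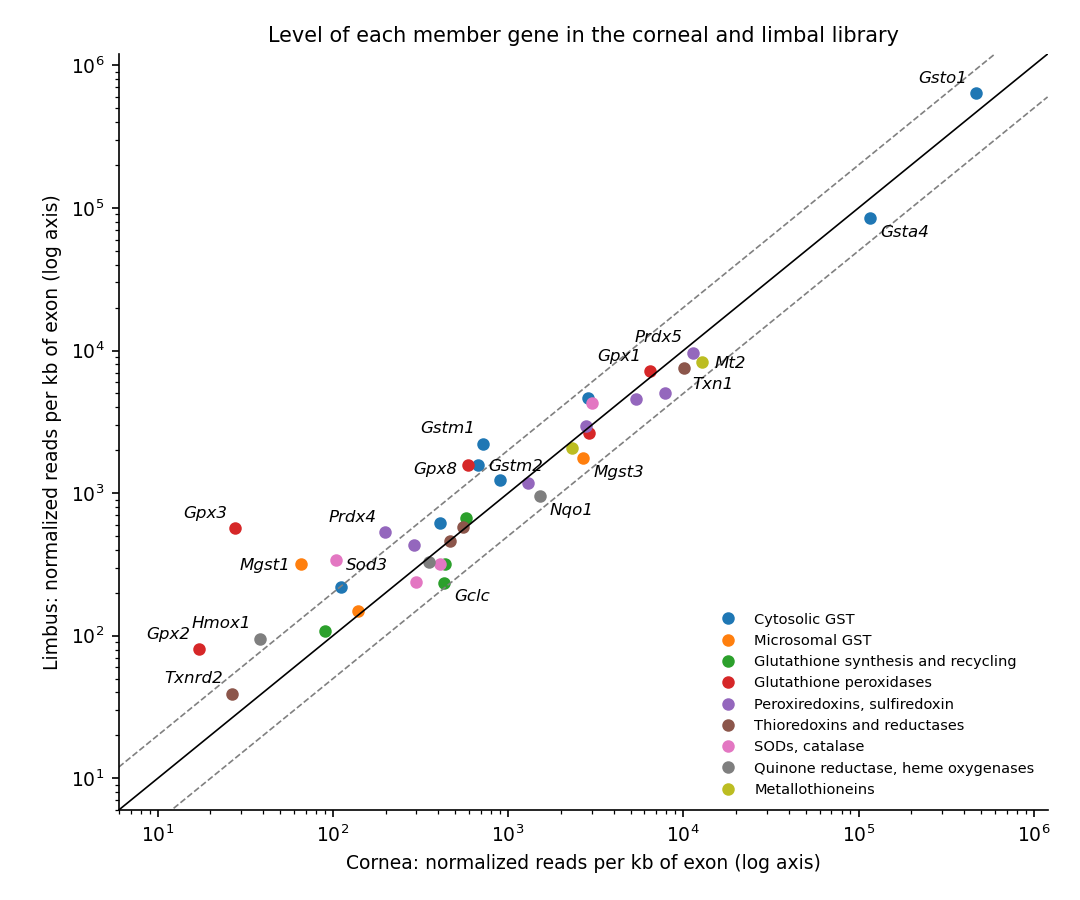
Level of each of the 40 genes as normalized reads per kb of annotated exon in the corneal (x) and limbal (y) library, both axes logarithmic, colored by family. The solid line marks equal levels and the dashed lines a 2-fold difference, with Gsto1 and Gsta4 at the top right near equality and Gpx3 farthest above the dashed line.

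The mu-class transferases among the members, which act on many electrophiles, were higher in the limbus, though not to the same degree. Gstm1 had 1040 corneal and 2992 limbal reads, a log2 ratio of 1.62 (1.52 to 1.72). Gstm2 had 831 and 1821 reads. Gstm5 had 449 and 634 and a log2 ratio of 0.59 (0.42 to 0.77), which was 1.03 (0.82 to 1.23) below that of Gstm1. These genes lie together, Gstm5 at chr3:107895821-107898686, Gstm2 at chr3:107981702-107986453 and Gstm1 at chr3:108012255-108017973, and of the start regions printed above that of Gstm1 holds a TGCACNC match and that of Gstm2 none of the motifs. Because the copies are alike, 12.3% of the 75-base stretches of Gstm1 transcripts and 2.77% of those of Gstm2 also occur in other genes. How the authors counted such reads is not given in the sources used here. Of the mu-class genes outside the members, Gstm4 had 259 corneal and 291 limbal reads, at 0.26 (0.017 to 0.51). Gstm6 had 20 and 25 reads, at 0.42 with an interval that held 0 (-0.49 to 1.34). Gstm3 had 0 and 1 and was not called, and Gstm7 is described below.

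Of the other cytosolic transferases, Gsta3 of the alpha class had 4993 corneal and 7611 limbal reads, a log2 ratio of 0.70 (0.65 to 0.76). Gstp1 of the pi class had 828 and 1070 reads, at 0.47 (0.33 to 0.60), but 44.5% of its 75-base stretches are shared, with Gstp2 among others, so its value is uncertain. With Gstt1 of the theta class, 7 of the 8 cytosolic transferases among the members exceeded counting error toward the limbus, against 33.2% of all genes. Gsta4 was the exception among these 8. Transferases outside the members did not share this lean: of 11 described below, 3 were on the limbal and 4 on the corneal side. The microsomal transferases, which sit in membranes, split. Mgst1, which also reduces lipid peroxides, had 136 corneal and 618 limbal reads, a log2 ratio of 2.28 (2.01 to 2.56), and Mgst3 had 3046 and 1870 reads, at -0.61 (-0.69 to -0.52). Mgst2, known to make leukotriene C4, had 87 reads in each library. The log2 ratio of Mgst1 exceeded that of Mgst3 by 2.89 (2.61 to 3.17).

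Glutathione is made in steps by glutamate-cysteine ligase and glutathione synthetase. Gclc, the catalytic subunit of the ligase, had 1523 corneal and 780 limbal reads, the lowest log2 ratio of all members at -0.87 (-0.996 to -0.744). Gclm, the modifier subunit, which raises the activity of the catalytic subunit, had 548 and 619 reads, at 0.27 (0.10 to 0.44). Both libraries thus held unlike proportions of reads on these genes, with 0.36 Gclm reads per Gclc read in corneal and 0.79 in limbal tissue. The log2 ratios differed by 1.14 (0.93 to 1.35). These proportions are of RNA and not of protein subunits, and they are not divided by exon length (5906 bases for Gclm, 3423 for Gclc). Glutathione synthetase, Gss, had 1601 and 1757 reads, at 0.23 (0.13 to 0.33). Glutathione reductase, Gsr, which renews glutathione with NADPH, had 1202 and 828 reads, at -0.44 (-0.57 to -0.31).

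The glutathione peroxidases showed the widest spread. Gpx3, the secreted peroxidase of plasma and basement membranes (chr11:54902453-54910377), had 52 corneal and 995 limbal reads, a 20.4-fold difference (log2 ratio 4.35, interval 3.95 to 4.79). Gpx2, known from the lining of the gut and other epithelia, was the rarest member with 19 and 83 reads, at 2.22 (1.49 to 3.03), and shares 10.3% of its 75-base stretches with a pseudogene. Gpx8, a peroxidase of the endoplasmic reticulum, had 637 and 1584 reads, at 1.41 (1.28 to 1.54). The abundant cytosolic Gpx1, by contrast, had 7130 and 7458 reads, at 0.16 (0.11 to 0.21). Gpx4, which reduces peroxides inside membranes, had 3829 and 3237 reads, at -0.15 (-0.21 to -0.079), with 46.2% of its 75-base stretches shared with a pseudogene among others. Its interval held 0 under the median scaling and under total reads, where it was at 0.059. The log2 ratio of Gpx3 exceeded that of Gpx1 by 4.19 (3.79 to 4.60). In normalized reads per kb, the level of Gpx3 in the limbus (567) was still below that of Gpx1 there (7192).

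Among the peroxiredoxins, which reduce peroxides through a reactive cysteine, the abundant members were close to equal or higher in the cornea. Prdx6 had 20232 corneal and 12231 limbal reads, a log2 ratio of -0.63 (-0.66 to -0.60). Prdx5 had 17090 and 13507 reads, at -0.24 (-0.28 to -0.21), and Prdx1 had 14915 and 11734, at -0.25 (-0.29 to -0.22). The mitochondrial Prdx3 had 1976 and 1688 reads, at -0.13 (-0.23 to -0.037), with 0 inside the interval under all 3 other scalings and a ratio of 0.074 under total reads, and the cytosolic Prdx2 had 5764 and 5671, at 0.072 (0.019 to 0.13). Prdx4, the peroxiredoxin of the endoplasmic reticulum, stood apart with 293 and 741 reads, at 1.43 (1.24 to 1.63), which was 1.68 (1.49 to 1.88) above Prdx1. Srxn1, the sulfiredoxin that restores overoxidized peroxiredoxins, had 848 and 1185 reads, at 0.58 (0.45 to 0.71).

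The members of the thioredoxin system, which renews peroxiredoxins, lay on both sides. Cytosolic Txn1 had 11012 corneal and 7636 limbal reads, a log2 ratio of -0.43 (-0.47 to -0.39). Mitochondrial Txn2 had 2029 and 1892 reads, at -0.0051 (-0.096 to 0.086), and the cytosolic reductase Txnrd1 had 2319 and 2278, at 0.070 (-0.014 to 0.15). These intervals bound any difference of Txn2 and Txnrd1 between the libraries to well under 1.5-fold as far as counting error goes. The mitochondrial reductase Txnrd2 was rare, with 111 and 154 reads, at 0.57 (0.21 to 0.93).

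The 3 superoxide dismutases did not move together. Sod3, the extracellular enzyme that binds heparan sulfate in the matrix (chr5:52363791-52371418), had 400 corneal and 1238 limbal reads, a log2 ratio of 1.73 (1.56 to 1.89). Sod1, the cytosolic copper and zinc enzyme, had 1999 and 2662 reads, at 0.51 (0.42 to 0.59), with 12.2% of its 75-base stretches shared with a pseudogene. Sod2, the manganese enzyme of mitochondria, had 2516 and 1843 reads, at -0.35 (-0.44 to -0.27). Catalase of peroxisomes, Cat, had 810 and 598 reads, at -0.34 (-0.50 to -0.19), though its interval held 0 under total reads. The log2 ratio of Sod3 exceeded that of Sod1 by 1.22 (1.03 to 1.40).

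Nqo1, the quinone reductase and a classical Nrf2 target, had 2426 corneal and 1426 limbal reads, a log2 ratio of -0.67 (-0.77 to -0.58). Hmox1, the inducible heme oxygenase that is abundant in macrophages that clear heme, was rare, with 62 and 145 reads, at 1.32 (0.88 to 1.77). Its constitutive relative Hmox2 had 815 and 702 reads, at -0.12 (-0.27 to 0.028), and the log2 ratios differed by 1.44 (0.99 to 1.89). The neighboring metallothionein genes Mt2 (chr8:94172664-94173568) and Mt1 (chr8:94179082-94180327) were both lower in the limbus, though for Mt1 the interval held 0 under total reads and under the median scaling. Mt2 had 7777 and 4720 reads, at -0.62 (-0.68 to -0.57), and Mt1 had 2984 and 2484, at -0.17 (-0.25 to -0.092). The difference between both was 0.46 (0.36 to 0.55) in log2 ratio. Of the start regions printed above, that of Mt2 holds TGACTCAGC and matches to both metal response element cores, and that of Mt1 a single TGCACNC match. The annotated exons of Mt1 cover its whole span, and its window ends where they begin. Bases after the start were not searched in either gene, so these matches do not count all metal response elements of Mt1 or Mt2. An antisense gene overlaps 432 exon bases of Mt2. Exons of Gss, Gstm5, Hmox2, Prdx2, Prdx5 and Txnrd2 are overlapped in the same way, on the opposite strand, and strand use in the counting is not given in the sources used here.

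Grouped by where the proteins act, a grouping made after the values were seen, the members of the secretory route and the outside of the cell lay highest. All 4 of them, Gpx3, Sod3, Prdx4 and Gpx8, were at least 2-fold higher in the limbus (15.5% of all genes were). Their log2 ratios ran from 1.41 to 4.35 with a median of 1.58, and they had 1382 corneal against 4558 limbal reads in sum. Because the group was formed with these values known, its count is a description only and is not to be read against that share. Of 4 mitochondrial members, Prdx3, Txn2, Txnrd2 and Sod2, none passed 2-fold. Of 5 members that were assigned to membranes, Mgst1 and Hmox1 passed 2-fold toward the limbus, with a median of 0.096. Mgst2 (0.096), Mgst3 (-0.61) and Hmox2 (-0.12) did not, and all these counts rest on how the members were assigned. The remaining 26, mostly cytosolic, without Cat and with Prdx5, which is known from mitochondria and peroxisomes too, had a median of 0.12, and 3 of them, Gstm1, Gstm2 and Gpx2, passed 2-fold toward the limbus.

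The libraries differed in markers of cell types, and in pooled tissue fewer cells of a type and less RNA per cell cannot be told apart. Corneal epithelial markers matched the labels, with 4 of 4 higher in the cornea (Krt12 1137735 corneal and 233324 limbal reads, Aldh3a1 634936 and 255152). The limbal and conjunctival keratins were higher in the limbus, 4 of 4 (Krt15 37738 and 353826, Krt13 35544 and 120736, Krt4 2138 and 71498). Per the paper's methods the rim was separated from the conjunctiva, and the share of conjunctival tissue in the limbal library was not tested. Of the stromal genes, Kera was higher in the cornea (12119 and 1423 reads), Lum was close to equal, and Dcn, Col1a1 and Col1a2 were higher in the limbus. Every matched marker of muscle, blood vessels, macrophages, pigment cells, nerve sheath, lens and photoreceptors had more normalized reads in the limbus. In sum, the 5 skeletal muscle genes had 80 corneal and 9649 limbal reads, the 5 blood endothelial genes 198 and 2267, the 5 smooth muscle genes 79 and 1825, the 4 macrophage genes 756 and 2296, the 5 melanocyte genes 316 and 1590, the 5 Schwann cell genes 5026 and 7789, the 5 lens genes 1342 and 11252 and the 5 photoreceptor genes 576 and 5250. Des was at 0 reads in the cornea, and the erythroid Alas2 had 99 and 102 reads. These markers move with the 9 members at least 2-fold higher in the limbus, and their part in those differences was not tested.

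The wider pathway was read from 59 further genes in lists of regulators, transferases, glutathione metabolism, thioredoxin partners, metal and heme genes and producers of oxidants. Of these, 55 had more than 3 reads in both libraries, 14 passed 2-fold toward the limbus and 2 toward the cornea, against 15.5% and 8.99% of all genes, and the median was 0.045. None of 7 regulators passed 2-fold. Nrf2 (Nfe2l2) had 2464 corneal and 2167 limbal reads, a log2 ratio of -0.090 (-0.17 to -0.0057), and Keap1, which holds Nrf2 back, had 1843 and 1467, at -0.23 (-0.33 to -0.13). Nfe2l1 was at -0.14, Bach1, which represses the same elements, at -0.31, and the small Maf partners Mafg, Mafk and Maff at 0.048, 0.0064 and -0.52. The side of Nrf2 rests on the scaling: its log2 ratio was -0.029 (-0.11 to 0.055) with the trimmed mean of log ratios, 0.013 (-0.071 to 0.097) with the median scaling and 0.12 (0.032 to 0.20) with total reads. Under total reads Nfe2l1 was at 0.064, and of the 7 only Maff stayed lower in the limbus beyond counting error.

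Of 11 further transferases with enough reads, Gstm7 (20 corneal and 45 limbal reads) and Gsto2 (28 and 53), a relative of Gsto1, passed 2-fold toward the limbus. Both are rare, and beyond counting error 3 of the 11 were higher in the limbus (33.2% of all genes) and 4 in the cornea (40.6%), with a median of -0.055. The abundant Gsta2 had 2588 and 1362 reads, at -0.83 (-0.93 to -0.74), and Gstk1 had 535 and 287, at -0.80 (-1.01 to -0.59). Of 13 genes of glutathione metabolism, 5 passed 2-fold toward the limbus and 0 toward the cornea, with a median of 0.045. Of the 13, 5 exceeded counting error on the limbal side (33.2% of all genes) and 3 on the corneal side (40.6%). Over all genes the share past 2-fold was 15.5% toward the limbus and 8.99% toward the cornea, and lists this short are described only. Abcc1, an exporter of glutathione and its conjugates, had 339 and 1368 reads, a log2 ratio of 2.11 (1.94 to 2.28). Gpx7, the other peroxidase of the endoplasmic reticulum beside Gpx8, had 31 and 149 reads, at 2.36 (1.79 to 2.97). The cystine importer Slc7a11 (18 and 38 reads) and the gamma-glutamyl transferases Ggt5 (9 and 26) and Ggt1 (9 and 19), which break down glutathione outside the cell, were rare, and the interval of Ggt1 held 0 (-0.040 to 2.50). Of 9 thioredoxin partners, Msrb3, a methionine sulfoxide reductase, had 109 and 518 reads, at 2.34 (2.04 to 2.66), and Txnrd3, a reductase of thioredoxin and glutathione known from testis, was 2-fold higher in the cornea with 640 and 283 reads, at -1.08 (-1.29 to -0.88). Of the metal and heme genes, Mt3, the metallothionein of brain, passed 2-fold toward the limbus with 5 and 33 reads, at 2.82 (1.45 to 4.53).

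**Figure D4:**
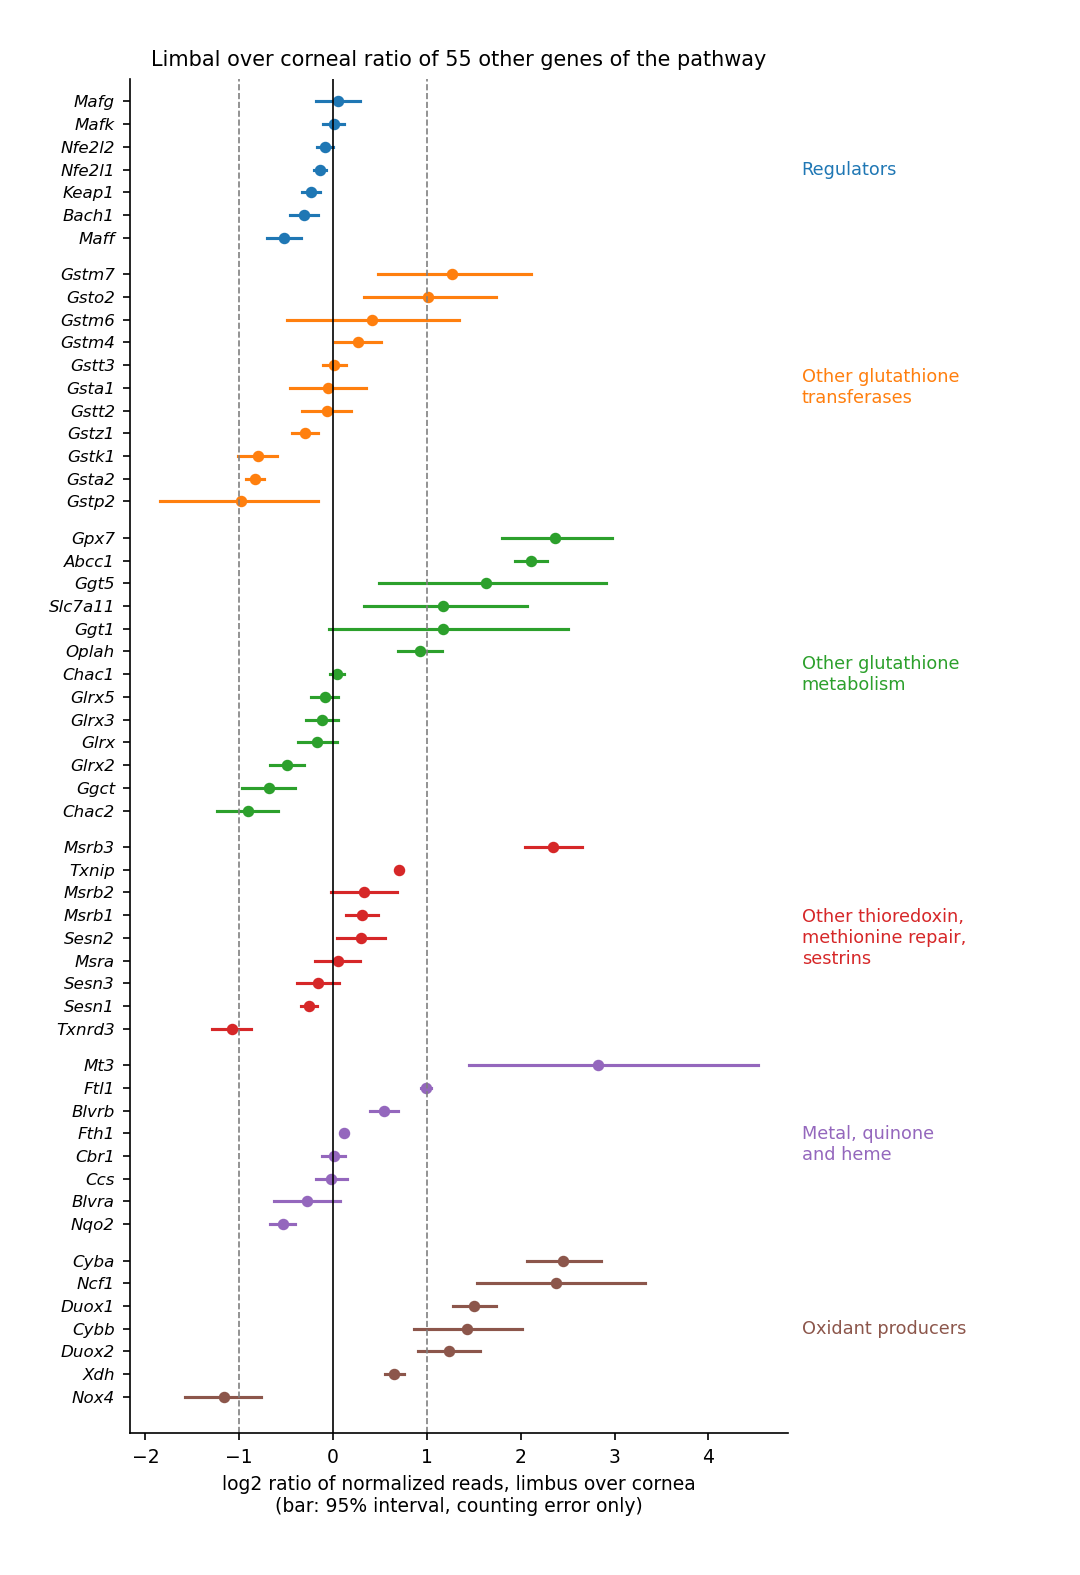
Log2 ratio of limbus over cornea of the 55 further pathway genes read more than 3 times in each library, by list, with exact 95% intervals of counting error. The 7 regulators lie between -0.52 and 0.048, while 5 of 7 oxidant producers lie beyond the dashed line of a 2-fold limbal difference and Nox4 beyond that of a corneal one.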

How the data were processed

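Pooled corneal buttons and limbal rims were sequenced as 75-base paired reads. Per the paper's methods, CLC Genomics Workbench was used to trim adaptors and map reads to GRCm38 (mm10), with normalization by trimmed mean of M-values. In 1 table the authors deposited, per gene, the mean normalized signal (reads divided by a size factor) over both libraries. The authors also deposited the log2 fold change with its standard error, and p-values of the same comparison. These columns hold the authors' own comparison and are neither printed nor used as results. Fold change and error served only to choose, among the whole read numbers that give the mean, the pair of each gene.

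Each mean fits a pair of whole read numbers, with 109 corneal reads weighing as much as 102 limbal reads (size factors 1.03 and 0.967), since 102 times cornea plus 109 times limbus reads came within 0.0101 of a whole number for each gene. Of the 17442 genes 11299 allow several pairs, and for 4 the next pair missed by under 10 times the best. This gave libraries with totals of 26104317 corneal and 21182025 limbal reads on named genes. Rows without a gene name (17484 of 40904) were left out. For the 40 members, 2 had a single possible pair, and for the others the next pair missed by at least 49.1 times as much as the best. Read numbers are thus derived values. Ratios are limbus over cornea of normalized reads. Genes with 3 reads or fewer in a library were not called. A call is a fold of 2 or more, and the depth of each gene sets its interval. All 40 members are named, and of the wider lists those past that fold and the markers beside which results are read. The 7 regulators, Gsta2, Gstk1, Gstm3, Gstm4, Gstm6 and Xdh fall outside this rule and were named after their values were seen. Members and lists were chosen with earlier results of these data known. Positions, exon lengths and shared 75-base stretches are from the GENCODE annotation and transcripts of GRCm38, and start regions from RefSeq (GRCm38.p6). Accessions in the table did not pair with its gene symbols (2 of 18556 did), so symbols were used. Gstp3, Adgre1 and 4 hemoglobin genes were not matched and were not analyzed here. Scripts used Python 3.11.15, numpy 2.4.6, scipy 1.17.1, pandas 2.3.3 and matplotlib 3.10.9. Alternatives were other scalings, a pseudocount of 1, a fold of 1.5, a filter on a mean of 50 and the next best pair of reads.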

Additional observations from a re-analysis of the deposited data

How the results depend on the processing

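No paired analysis was possible because the values analyzed are per tissue and not per numbered sample, and for the same reason no replicate could be left out in turn. The median of the members, 0.13, became 0.33 under total reads and 0.23 under the median scaling. Scaling by total reads turned Gpx4 to 0.059, Prdx3 to 0.074 and Mt1 to 0.037, so that these 3 lose their corneal direction, and took Cat to -0.14 (-0.29 to 0.018), so that its interval held 0. Under the median scaling the intervals of Gpx4, Prdx3 and Mt1 held 0, and under the trimmed mean that of Prdx3. Txnrd1 came to lie above 0 beyond counting error under all 3 scalings and Txn2 under total reads and the median scaling. Under all 3 scalings Gstt1 passed 2-fold, which made 10 limbal members. These scalings raise the ratio of every gene, and the share of all genes past 2-fold is given only for the size factors of the deposited table. The count of 10 is thus not to be read against that share. With a fold of 1.5 in place of 2, 5 members counted as higher in the cornea in place of 0 (12.5%, against 21.5% of all genes). Counts beyond counting error ranged from 21 to 23 in the limbus and 11 to 15 in the cornea. With the size factors of the deposited table these were 21 and 15, against 33.2% and 40.6% of all genes. No share of all genes is given for the other scalings, so the range describes the members alone. The next best pair of reads, a far worse match to the table, turned Hmox1 to -1.90, and moved the other 37 members that have such a pair beyond their intervals. The pseudocount moved no member beyond its interval, and the filter on the mean removed no call. The intervals of Gpx2, Hmox1, Mgst2, Gpx3 and Txnrd2 are the widest of the members, and with 1 library per tissue no difference here has a replicate check.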

Other observations

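Enzymes that make oxidants were also unequal between both tissues. Of 8 such genes, 7 had more than 3 reads in both libraries and 5 passed 2-fold toward the limbus and 1 toward the cornea, against 15.5% and 8.99% of all genes. The phagocyte NADPH oxidase genes Cybb, Cyba and Ncf1 had 37, 66 and 14 reads in the cornea and 93, 337 and 68 in the limbus, log2 ratios of 1.43, 2.45 and 2.38. Macrophage markers moved the same way (Csf1r 74 and 465 reads, Lyz2 241 and 1045), and their part in these values was not tested. Duox1 and Duox2, the dual oxidases known from epithelia of airway and thyroid, had 217 and 577 and 116 and 255 reads, at 1.51 (1.28 to 1.74) and 1.23 (0.91 to 1.56). Nox4, an oxidase that is active without stimulation, was higher in the cornea with 177 and 74 reads, at -1.16 (-1.57 to -0.76). Xdh, xanthine dehydrogenase, had 1412 and 2078 reads, at 0.65 (0.55 to 0.75).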
